A study of Trichoderma reesei with 8 samples.

Results

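The full breakdown of straw hemicelluloses includes the removal of sugar and acid side chains and the cutting of mannan chains to single sugars. The 4 genes of *Trichoderma reesei* described here are linked to such roles by enzyme name or by family. They are *glr1* (model kg2.C_scaffold_28000022), which encodes the α-glucuronidase of glycoside hydrolase (GH) family 67, the GH2 β-mannosidase gene (e_gw1.10.402.1), the GH54 gene (e_gw1.2.255.1) and the GH27 gene (e_gw1.17.344.1). The GH54 and GH27 genes are labelled here by family alone, which does not settle their substrate. All 4 genes were chosen by name, out of the 9126 gene models counted, and 3 of the 4 had enough reads to be tested.

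*T. reesei* QM6a is a wild-type strain of a filamentous fungus that lives on dead plant material. Mycelia were grown for 48 h in minimal medium with 1% glucose (48 h glucose, 3 libraries), washed and moved to fresh medium with 1% wheat straw for 24 h (24 h straw, 3 libraries), and then given glucose to 1% in the straw cultures for 5 h (5 h glucose, 2 libraries). Every library came from the same strain, in shaken flasks at the same temperature. The straw condition combines the removal of glucose, the washing, the transfer, 24 h more of culture and the straw. The 5 h glucose condition combines the glucose with the additional time on straw. The parts of each condition cannot be told apart.

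Xylan is a chain of xylose that carries glucuronic acid, arabinose and acetyl groups. α-Glucuronidases of family GH67 take the glucuronic acid from the end xylose of short xylan fragments, and GH54 enzymes are known as α-L-arabinofuranosidases, which release arabinose. Mannans are chains of mannose, often with galactose branches: β-mannanases cut the chain, β-mannosidases release single mannose units from the ends, and most known GH27 enzymes are α-galactosidases, which remove the branches. In *T. reesei* many genes for such enzymes are known to be transcribed on plant polysaccharides and repressed by glucose.

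The libraries held from 798550 to 2997433 counted reads, with the 2 libraries of 5 h glucose the shallowest. After a filter on low counts 7211 genes were tested. The libraries of a condition came from separate cultures, as the study's methods describe them. Straw libraries 1 and 3 were closer to each other than any other pair of one condition: over genes with at least 2000 reads their squared difference was 1.65 times the counting noise, against 20.7 to 172 for the other 6 pairs. They were kept as separate libraries, and their sum was tried as an alternative. Levels within a library are shares of its reads, and in such bulk samples fewer cells expressing a gene and less RNA per cell cannot be told apart. RPKM, in which a read count is scaled by transcript length and library size, allows levels of different genes to be compared.

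The gene *glr1* had by far the highest level of the 4 on straw, and its transcript was near or below 1 RPKM in both glucose conditions. On straw its RPKM was 938, 1188 and 947 in the 3 libraries, a mean of 1025 ± 142 (SD, n = 3), which rests on 33400, 39501 and 41218 reads. In 48 h glucose the RPKM was 0.704, 1.01 and 0.858, a mean of 0.856 ± 0.151 (SD, n = 3). In 5 h glucose it was 0.918 and 0.500, a mean of 0.709 ± 0.295 (SD, n = 2). Every straw library was above every glucose library, whereas the 48 h and 5 h glucose libraries overlapped. By mean RPKM *glr1* held rank 8 of the 9126 genes on straw, rank 6014 in 48 h glucose and rank 6020 in 5 h glucose.

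The log2 fold change of *glr1* from 48 h glucose to straw was 9.41 with a standard error of 0.30 (adjusted p = 5.6e-14 in edgeR's quasi-likelihood test, adjusted after Benjamini and Hochberg). From straw to 5 h glucose it was -9.28 with a standard error of 0.37 (adjusted p = 3.5e-12 in the same test). After 5 h of glucose 0.161% of its straw level was left on the scale of the test, in which reads are scaled by trimmed mean of M-values (TMM) factors. The 2 glucose conditions were not shown to differ for *glr1*, with a log2 fold change of 0.13, a standard error of 0.37 and an edgeR adjusted p of 0.79 for 5 h over 48 h glucose. The sign of that last value turned with the scaling, to -0.33 with the RPKM library totals, and it was -0.056 without 48 h glucose library 1 and -0.047 without 5 h glucose library 1.

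The β-mannosidase gene rose on straw and fell again when glucose came back, to a level that stayed above that of 48 h glucose. Its RPKM in 48 h glucose was 2.15, 1.95 and 1.53, a mean of 1.88 ± 0.314 (SD, n = 3). On straw it was 99.5, 98.9 and 97.6, a mean of 98.7 ± 0.989 (SD, n = 3). In 5 h glucose it was 4.77 and 3.30, a mean of 4.04 ± 1.04 (SD, n = 2). The straw libraries were the highest, the 48 h glucose libraries the lowest and the 5 h glucose libraries between them, with no overlap between any pair of conditions. The gene stood at rank 4887 in 48 h glucose, rank 165 on straw and rank 2767 in 5 h glucose.

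For the β-mannosidase gene the log2 fold change was 4.91 with a standard error of 0.19 from 48 h glucose to straw (edgeR adjusted p = 2.4e-13). It was -3.36 with a standard error of 0.21 from straw to 5 h glucose (edgeR adjusted p = 3.3e-10), which left 9.73% of the straw level on the TMM scale. Of the 3 tested it alone was called between the glucose conditions, where 25.7% of all genes were called higher and 23.2% lower. Its log2 fold change for 5 h over 48 h glucose was 1.55, with a standard error of 0.20 and an edgeR adjusted p of 8e-06. On the TMM scale its mean in 5 h glucose was 2.95-fold that in 48 h glucose. When scaled by the RPKM library totals the change was 1.09 (edgeR adjusted p = 0.0015).

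The GH54 gene rose on straw and fell in 5 h glucose, at a straw level far below that of *glr1*. Its RPKM in 48 h glucose was 0.326, 0.102 and 0.394, which rests on 7, 2 and 8 reads. On straw the RPKM was 12.5, 20.6 and 13.3, a mean of 15.5 ± 4.46 (SD, n = 3), from 258, 397 and 336 reads. In 5 h glucose it was 0.499 and 0.253, from 6 and 5 reads. Straw library 2 was the highest, all straw libraries lay above all glucose libraries, and the glucose conditions overlapped. The mean RPKM put the gene at rank 1713 on straw, against rank 7005 in 48 h glucose and rank 6666 in 5 h glucose.

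The GH54 gene had a log2 fold change of 4.96 with a standard error of 0.32 from 48 h glucose to straw (edgeR adjusted p = 1.9e-10). The change from straw to 5 h glucose was -4.14 with a standard error of 0.39 (edgeR adjusted p = 7.6e-08), and 5.64% of the straw level was left on the TMM scale. The gene passed the filter through its straw libraries alone. The direction of both changes was thus set by the filter, and their p-values are a description. For 5 h over 48 h glucose the log2 fold change was 0.82 with a standard error of 0.64 (edgeR adjusted p = 0.3), so a difference was not detectable from the 2 to 8 reads in each glucose library.

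The GH27 gene was scarcely detected, with at most 10 reads in any library, and did not pass the filter. It had 0, 0 and 1 reads in 48 h glucose, 7, 1 and 10 reads on straw and 0 and 0 reads in 5 h glucose. Straw libraries 1 and 3 held 17 of its 19 reads, and straw library 2 had no more than the third library of 48 h glucose. Its RPKM on straw was 0.348, 0.0533 and 0.407.

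Summed over the libraries of a condition, the GH27 gene had 0.221 CPM in 48 h glucose, which is 1 of 4518605 counted reads (exact 95% Poisson interval 0.00560 to 1.2). On straw it had 2.25 CPM, or 18 of 8011461 counted reads (1.33 to 3.55). The ratio of straw to 48 h glucose was 10.2, with an exact 95% interval of 1.6 to 423 that covers counting error only. In 5 h glucose no read was found in 1748794, which allows up to 1.72 CPM at 3 reads and up to 2.11 CPM by the exact 95% interval. That interval overlaps the straw interval, and such an overlap does not test a difference. Tested without the filter, the gene had an edgeR adjusted p of 0.047 for straw over 48 h glucose and 0.094 for 5 h glucose over straw.

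**Figure D1:**
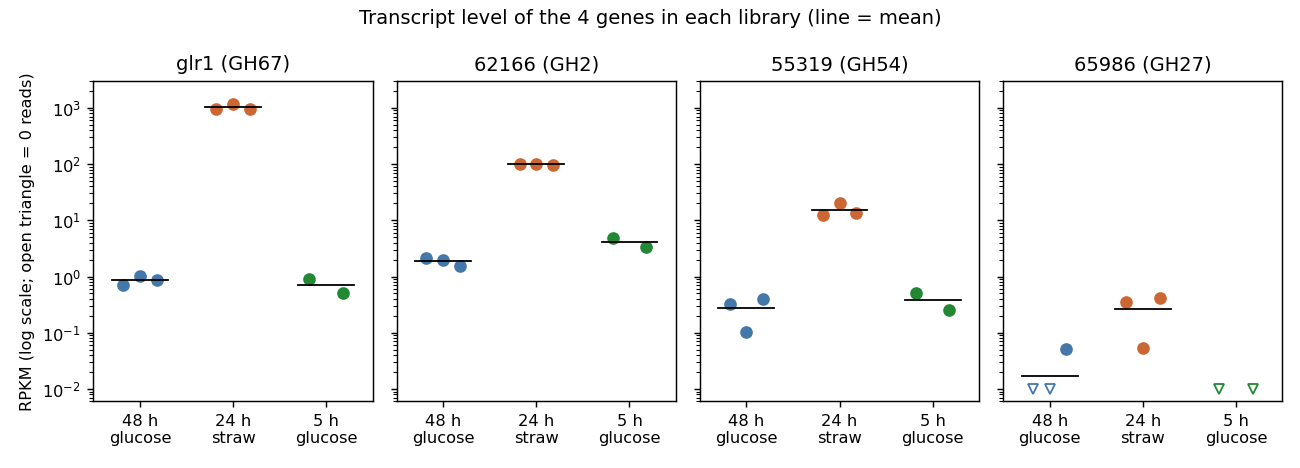
RPKM of the 4 genes in each of the 8 libraries, on a log scale, with one panel per gene. Each point is a library, the line is the mean of a condition, and open triangles mark libraries with 0 reads. The straw libraries of *glr1* sit between 938 and 1188 and those of the β-mannosidase gene between 97.6 and 99.5, while the GH27 gene stays below 1 in every library.

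Among the 3 genes tested, 3 were called higher on straw than in 48 h glucose and 3 were called lower in 5 h glucose than on straw. Over all genes tested the test called 30.6% higher on straw and 30.0% lower in 5 h glucose. These counts are a description: *glr1* and the β-mannosidase gene also meet the rule by which the study listed straw-induced genes from these libraries (over 50 RPKM on straw and over 20-fold above 48 h glucose), and the GH54 gene, with at most 8 reads in any glucose library, passed the filter through its straw libraries. Every straw library was above every 48 h glucose library for 35.6% of all genes tested, and every 5 h glucose library was below every straw library for 38.5%. In size, the change of *glr1* from 48 h glucose to straw exceeded that of 99.6% of the genes tested, and the changes of the β-mannosidase and GH54 genes each exceeded 96.3%. For 5 h over 48 h glucose 1 of the 3 genes was called higher, where 25.7% of all genes were, and its libraries in 5 h glucose were above every 48 h glucose library, as for 32.0% of all genes tested. Scaling by RPKM library totals instead of TMM moved the median of the log2 fold changes of all genes by 0.80, -1.27 and -0.46 in the 3 comparisons, in the order given. Under that scaling *glr1* changed by 10.22 and -10.55, the β-mannosidase gene by 5.71 and -4.62, and the GH54 gene by 5.77 and -5.43 in the first and second comparison. The 3 comparisons share libraries, so their values are not independent.

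The 4 genes together took 0.852% ± 0.0658 (SD, n = 3) of the summed RPKM on straw. In 48 h glucose they took 0.00342% ± 0.000207 (SD, n = 3), and in 5 h glucose 0.00618% ± 0.000557 (SD, n = 2). The straw mean was 249-fold the mean in 48 h glucose, and every straw library was above every glucose library. The exact two-sided permutation test over libraries gave p = 0.1, the smallest value this design allows, in each of the 3 comparisons. The make-up of the sum changed with the condition: *glr1* gave 89.9% of it on straw, 28.4% in 48 h glucose and 13.6% in 5 h glucose. The β-mannosidase gene gave 8.75%, 61.8% and 79.3% in that order, and the GH54 gene between 1.34% and 9.17%.

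Ratios of reads per length between a pair of genes within a library do not depend on the library's scaling. On straw *glr1* was 9.43, 12.0 and 9.70 times as high as the β-mannosidase gene in the 3 libraries. In 48 h glucose the ratio was 0.332, 0.519 and 0.564, and in 5 h glucose it was 0.196 and 0.155. The order of the α-glucuronidase and the β-mannosidase transcripts was thus turned on straw in every library, and the 3 conditions did not overlap. The log2 ratio was 4.49 higher on straw than in 48 h glucose, and it differed by -5.89 for 5 h glucose over straw and by -1.40 for 5 h over 48 h glucose. Each of these differences had an exact permutation p of 0.1, the smallest possible, and an adjusted p of 0.18 over the 9 ratio tests made.

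The ratio of *glr1* to the GH54 gene was 75.0, 57.7 and 71.1 on straw, against 2.05, 8.01 and 2.08 in 48 h glucose and 1.74 and 1.85 in 5 h glucose. The straw libraries again stood apart from all glucose libraries, and the glucose conditions were kept from overlapping by the small step from 1.85 to 2.05. The log2 ratio differed by 4.38 between straw and 48 h glucose and by -5.23 between 5 h glucose and straw (exact permutation p = 0.1, adjusted 0.18 each). For 5 h over 48 h glucose it differed by -0.86 (exact permutation p = 0.5, adjusted 0.56), a value that rests on the few reads of the GH54 gene.

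The ratio of the β-mannosidase gene to the GH54 gene, by contrast, overlapped between straw and 48 h glucose. It was 7.95, 4.80 and 7.32 on straw and 6.18, 15.4 and 3.69 in 48 h glucose, with a log2 difference of -0.11 (exact permutation p = 1). In 5 h glucose it was 8.87 and 11.9, a log2 difference of 0.65 from straw (exact permutation p = 0.2, adjusted 0.3). From 48 h glucose the log2 difference was 0.54 (exact permutation p = 0.5, adjusted 0.56). These ratios in the glucose libraries rest on the few reads of the GH54 gene, and the sign of the first difference turned to 0.24 when 2 reads instead of 0.5 were added to each count, to 0.45 without 48 h glucose library 2 and to 0.11 without straw library 2.

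**Figure D2:**
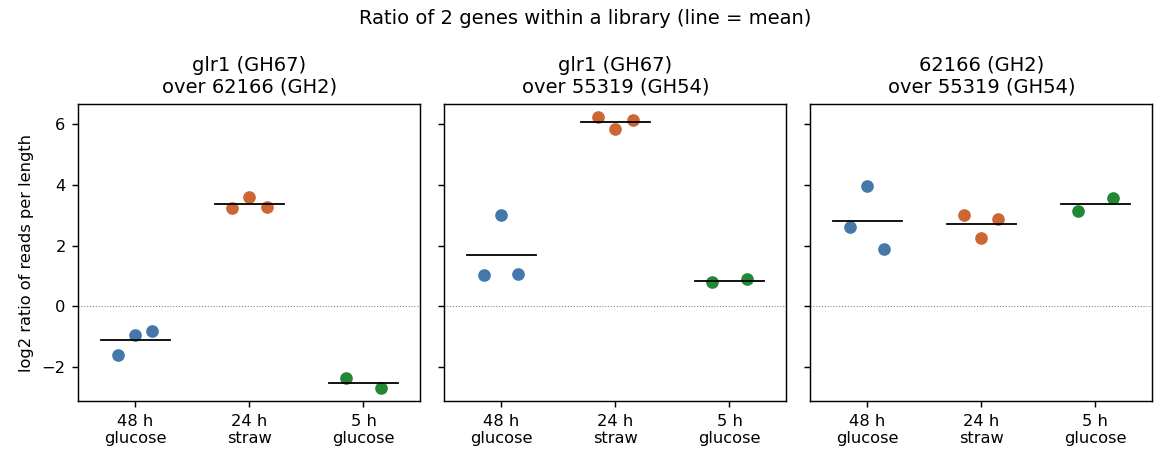
Log2 ratio of reads per kilobase between each pair of the 3 tested genes within a library, with 0.5 reads added to each count. Each point is a library and each line the mean of a condition. Ratios of *glr1* to the other genes are highest in the straw libraries, and the ratio of the β-mannosidase to the GH54 gene overlaps between straw and 48 h glucose.

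The straw libraries agreed closely for the β-mannosidase gene and less so for the others. Straw library 2 differed from the mean of libraries 1 and 3 by 0.25 on the log2 TMM scale for *glr1*, -0.08 for the β-mannosidase gene and 0.59 for the GH54 gene. Over 4361 tested genes with at least 300 straw reads the median size of that difference was 0.15, and 3.85% were above 0.5. The arabinofuranosidase genes *abf1* and *abf2* differed by -1.59 and -1.22, and the α- and β-galactosidase genes *agl2* and *bga1* by -1.42 and -1.07, in the other direction from *glr1* and the GH54 gene. The acetyl xylan esterase genes TRIREDRAFT_54219 and *axe1* differed by 1.29 and 0.40, in the same direction as those genes. All other tested genes of the side-chain and mannan list lay between -0.32 (*man1*) and 0.38 (TRIREDRAFT_68064). Among them the esterase genes *aes1* and *cip2* were at 0.01 and -0.25, so the esterase genes did not move as a class. Of the 4361 genes 0.436% were below -1 in that library. What set straw library 2 apart was not tested.

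Other genes for side chains and mannan formed a list of 15, of which 13 were tested. On straw 12 of the 13 were higher than in 48 h glucose and 1 was lower, with a median log2 fold change of 8.46, where 30.6% of all genes tested were higher and 28.2% lower. Nothing about the list follows from that, since 9 of the 13 meet the study's rule for straw-induced genes, which was applied to these libraries. Of the 4 that do not, 3 were higher and 1 was lower on straw. Of those 3, GH2 gene TRIREDRAFT_69245 and GH27 gene TRIREDRAFT_55999 had at most 1 and 2 reads in any 48 h glucose library. They passed the filter through straw alone, so their direction was set by it. With 5 genes of at most 3 reads per 48 h glucose library set to the fold against 3 reads, the median was 6.76. The call went to 6 of 7 genes for xylan side chains, 4 of 4 tested for galactose and 2 of 2 tested for the mannan chain. The GH2, GH27 and GH43 genes of the list were placed in these classes by family alone, which does not settle their substrate. In 5 h glucose 13 of 13 were lower than on straw, where 30.0% of all genes tested were lower. The median was -7.80, or -7.38 with the 5 genes of at most 3 reads per 5 h glucose library set to the fold against 3 reads. The count of 13 too is a description. Of the 13, 4 had at most 3 reads in every glucose library and passed the filter through straw alone. So did *abf2*, *aes1* and TRIREDRAFT_55999, with at most 6, 6 and 8 reads in any glucose library. The 4 genes outside the study's rule were all called lower in 5 h glucose than on straw, as were 30.0% of all genes tested. For TRIREDRAFT_69245 and TRIREDRAFT_55999, which passed the filter through straw alone, this direction too was set by the filter. Between the glucose conditions 1 was higher in 5 h glucose, 3 were lower and 9 were not called, where 25.7% of all genes were called higher and 23.2% lower.

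Among genes for xylan side chains, *abf1* and *abf2*, arabinofuranosidase genes of families GH54 and GH62, had log2 fold changes of 6.76 and 8.46 on straw over 48 h glucose. The acetyl xylan esterase gene *axe1* changed by 8.94 and the acetyl esterase gene *aes1* by 9.48. The glucuronoyl esterase gene *cip2* had a mean RPKM of 88.0 on straw and 0.0549 in 48 h glucose, where it had at most 2 reads in a library. The 1 list gene that fell was the GH43 gene TRIREDRAFT_68064, with -0.63 (edgeR adjusted p = 0.0054), and its call was lost with the RPKM library totals, at 0.18 (adjusted p = 0.53). The change of *glr1*, 9.41, lay near those of the esterase genes *axe1* and *aes1*. Those of *cip2*, 9.72, and the β-mannanase gene *man1*, 9.32, were near it too, and that of TRIREDRAFT_54219, 11.23, was above. These last genes had at most 3 reads in every glucose library, so their values depend on the prior count of the fit. The change of the GH54 gene, 4.96, lay below those of the arabinofuranosidase genes *abf1* and *abf2*.

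Among genes for galactose, the α-galactosidase gene *agl2* of family GH36 changed by 5.97 and the β-galactosidase gene *bga1* of family GH35 by 6.37 on straw over 48 h glucose. The α-galactosidase gene TRIREDRAFT_64827 changed by 0.59 (edgeR adjusted p = 0.035) and was no longer called in DESeq2 (adjusted p = 0.084) or without straw library 1 (adjusted p = 0.14), straw library 3 (0.092) or any 1 of the 48 h glucose libraries (0.057, 0.082 and 0.054). It was also lower in 5 h than in 48 h glucose, at -1.17 (edgeR adjusted p = 0.02), as were *bga1*, at -1.43 (0.048), and TRIREDRAFT_68064, at -1.46 (0.00016). The call of TRIREDRAFT_64827 between the glucose conditions was lost without either 5 h glucose library (adjusted p = 0.074 and 0.057), and that of *bga1* without any 1 glucose library (adjusted p from 0.063 to 0.25). A second GH27 gene, TRIREDRAFT_75015, had 0, 0 and 4 reads on straw and none elsewhere, so it was scarcely detected, like the GH27 gene e_gw1.17.344.1. Among genes for the mannan chain, *man1*, the GH5 β-mannanase gene, had a mean RPKM of 108 on straw, 0.0894 in 48 h glucose and 0.150 in 5 h glucose. The GH2 gene TRIREDRAFT_69245 was called higher on straw as well, while the GH2 gene TRIREDRAFT_59689 had 0 reads in every library.

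**Figure D3:**
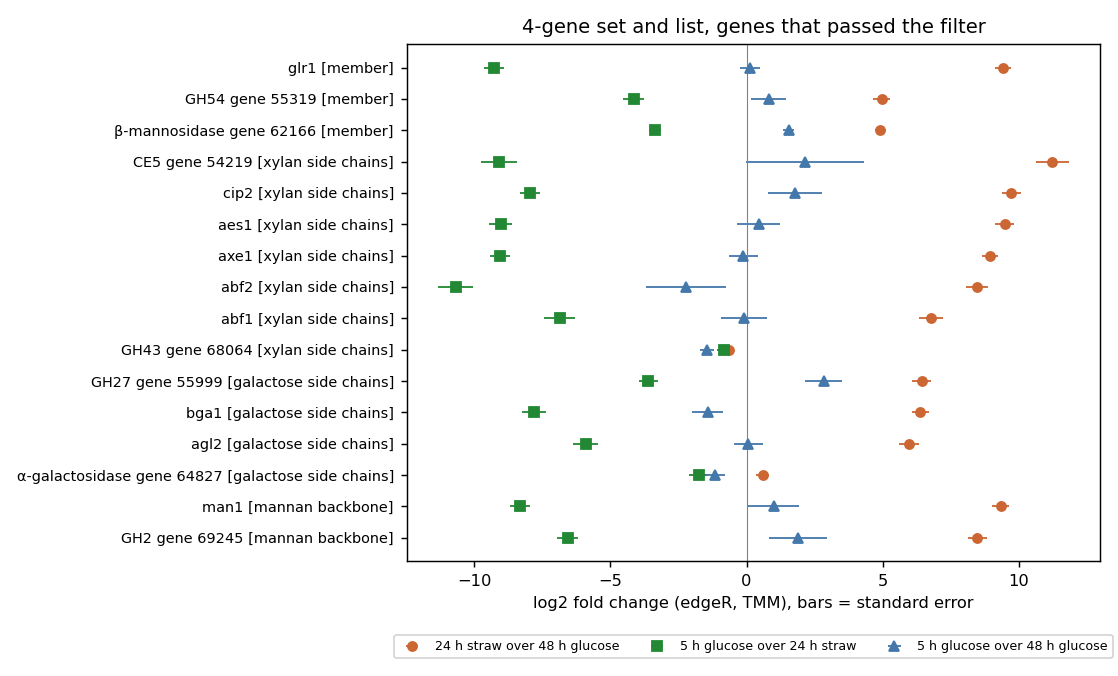
Log2 fold changes (edgeR, TMM) with their standard errors for the 3 tested genes (marked member) and the 13 tested list genes (marked by class), in the 3 comparisons. For list genes with at most 3 reads in each library of a glucose condition, 5 in either condition, the plotted value depends on the prior count of the fit. The values of straw over 48 h glucose lie above 4 for *glr1* and the GH54 and β-mannosidase genes and below 1 for TRIREDRAFT_68064 and TRIREDRAFT_64827.

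Genes of the same family differed in level. The GH54 pair had overlapping RPKM in 48 h glucose, where *abf1* had 0.665, 0.556 and 0.248, next to 0.326, 0.102 and 0.394 for the GH54 gene e_gw1.2.255.1. On straw *abf1* had 118, 41.3 and 117, each above the 12.5, 20.6 and 13.3 of e_gw1.2.255.1 in the same library. The GH54 pair went in opposite directions in straw library 2, where *abf1* was lowest and e_gw1.2.255.1 highest.

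The GH2 gene TRIREDRAFT_69245 had 11.9, 13.7 and 12.2 RPKM on straw, below the 97.6 to 99.5 of the β-mannosidase gene. In 48 h glucose it had 0.0254, 0 and 0.0268 RPKM, and in 5 h glucose 0.0906 and 0.0276, so the β-mannosidase gene was the higher GH2 gene in every library. A further GH27 gene, TRIREDRAFT_55999, had 10.1, 12.0 and 10.5 RPKM on straw, above the 0.348, 0.0533 and 0.407 of the GH27 gene e_gw1.17.344.1. It had 0.0959, 0.0524 and 0.0507 RPKM in 48 h glucose and 0.257 and 0.417 in 5 h glucose. It was the list gene called higher in 5 h than in 48 h glucose, at 2.83 (edgeR adjusted p = 0.0025), a call that was lost without 5 h glucose library 2 (2.00, adjusted p = 0.14).

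**Figure D4:**
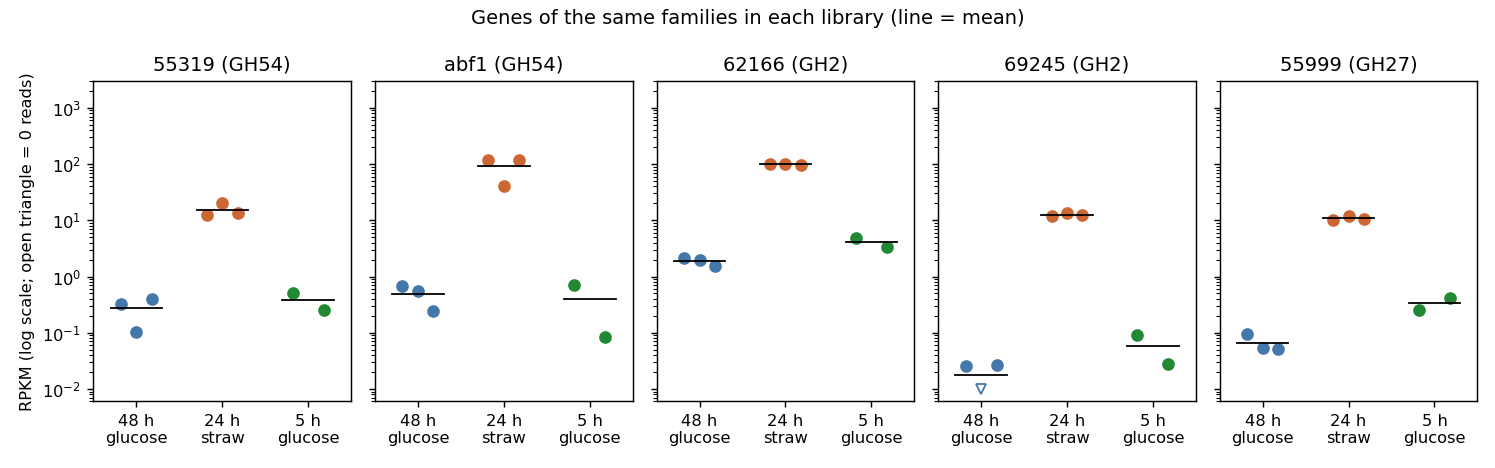
RPKM of GH54, GH2 and GH27 genes in each library, on a log scale. Each point is a library, lines are means of a condition, and the open triangle is a library with 0 reads. On straw *abf1* lies above the other GH54 gene, and the β-mannosidase gene lies above the other GH2 gene in every library.

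In the version 2.0 assembly *glr1* lies on scaffold 28 from 244151 to 246792, the β-mannosidase gene on scaffold 10 from 258215 to 260779, and the GH54 gene on scaffold 2 from 1617508 to 1619040. In these 3 genes the annotated span equals the transcript length of 2642, 2565 and 1533 bases, so the models hold no intron. The GH27 gene lies on scaffold 17 from 7867 to 9627, a span of 1761 bases with a transcript of 1491 bases. The 4 genes thus lie on 4 scaffolds.

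The end of *glr1* overlaps the next gene, TRIREDRAFT_69426, annotated as a copper transporter, by 10 bases. That neighbour had a mean RPKM of 0.0399 in 48 h glucose, 0.134 on straw and 0.115 in 5 h glucose, so it stayed below 1 where *glr1* reached 1025. TRIREDRAFT_62254, a Rab4-type small GTPase gene 958 bases from the β-mannosidase gene, changed by -0.29 on straw over 48 h glucose (edgeR adjusted p = 0.12). TRIREDRAFT_55049, a casein kinase gene 1833 bases from the GH54 gene, changed by 0.10 (edgeR adjusted p = 0.86). Neither of these neighbours was called, and whether a gene and its neighbour differed in their change was not tested. The neighbours on the other side of *glr1*, the β-mannosidase gene and the GH54 gene were not paired with a model. The same holds for both neighbours of the GH27 gene, so no values are given for them. Among these unpaired genes is the nearest to the β-mannosidase gene, at 591 bases. On scaffold 28 the list genes *cip2* and TRIREDRAFT_69245 lie 4926 bases apart, and *cip2* is 133487 bases from *glr1*.

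The likeness of other genes was measured by Pearson's r of log2(TMM-scaled CPM + 1) over the 8 libraries, among the genes tested. The points share their libraries and fall into 3 conditions, so r mostly records the difference between straw and glucose, and it is given as a description. The gene most like *glr1* was *cel61b*, a gene of the copper-dependent polysaccharide monooxygenases that cleave cellulose, with r = 0.9994. Its mean RPKM was 0.468 in 48 h glucose, 476 on straw and 0.400 in 5 h glucose. Next came TRIREDRAFT_65854, annotated as a Zn2Cys6 transcriptional regulator, with r = 0.9991, at 2.74 RPKM on straw and listed at 0 in every glucose library.

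Among the 3 genes most like the β-mannosidase gene was TRIREDRAFT_66819, annotated as an amino acid transporter, with r = 0.9984. Its mean RPKM was 2.22 on straw, 0 in 48 h glucose and 0.0613 in 5 h glucose. TRIREDRAFT_66819 had 0 reads in every 48 h glucose library and 1 in each 5 h glucose library, so its glucose values lie at the floor. The other 2, among them the closest with r = 0.9986, and the 3 most like the GH54 gene are not paired with a name here. The highest r for the GH54 gene was 0.9955. The number of genes with r above 0.99 was 82 for *glr1*, 47 for the β-mannosidase gene and 9 for the GH54 gene.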

How the data were processed

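The authors depleted ribosomal RNA, sequenced 50 bp SOLiD reads, mapped them with BioScope to the unmasked JGI assembly and removed reads on rRNA genes. HTSeq, named in the submitters' processing notes, counted uniquely aligned sense reads per gene model, so reads shared with a near-identical gene were left out. The deposited counts were not normalized. The deposited RPKM were calculated by the authors from count, transcript length and a library total, which was calculated back here as 7838128 to 16471040.

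Members and lists were chosen with earlier results of these data known. Gene names and transcript IDs were paired with models as printed in the study's additional files or, for genes printed without a model (among them *glr1*), by a single match on the 3 mean RPKM. Neighbours, spans and the assembly version come from RefSeq (version 2.0). The list of 15 holds genes that the study names for the same substrates or labels only with a family (GH2, GH27 and GH43). It was read from a table used here in part, so it is not complete.

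Counts were tested in edgeR 4.0.16 (R 4.3.3) with TMM factors (0.893 to 1.06), filterByExpr and the quasi-likelihood test, in 1 model of the 8 libraries with condition as the only term, and p was adjusted after Benjamini-Hochberg over 7211 genes with a threshold of 0.05. The standard error is the size of the log2 fold change divided by the square root of F. The procedure was tested on simulated data. Shares and ratios were compared by two-sided exact permutation of libraries (scipy 1.17.1). Intervals for single genes are exact 95% intervals for counting error only. Named genes were the 4 genes, the list and, per tested gene, the 3 genes with the highest r. Alternatives were DESeq2 1.42.0, RPKM library totals, no filter, compared conditions only, a replicate block, pooled Fisher tests, a stricter threshold, straw libraries 1 and 3 summed, and leaving out each library.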

Additional observations from a re-analysis of the deposited data

How the results depend on the processing

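Of 143 alternative fold changes of the tested genes 140 kept their direction and side of the threshold, and of 96 alternative counts of list genes 88 stayed within 1.5 times the main count. The 96 include the counts of list genes called higher in 5 h glucose than on straw. Those were 0 in the main test and in every alternative, so they say little about stability. Of 84 alternative ratios and shares, leaving aside those identical by construction, 81 kept their direction; their exact p cannot fall below 0.1, so no call could change. No alternative changed a call of *glr1*, the β-mannosidase gene or the GH54 gene. Leaving out each library gave log2 fold changes on straw over 48 h glucose of 9.22 to 9.52 for *glr1*, 4.87 to 4.95 for the β-mannosidase gene and 4.58 to 5.38 for the GH54 gene. For 5 h over 48 h glucose, where *glr1* was not called, it gave -0.056 to 0.24, and the RPKM library totals gave -0.33. For the pooled reads of the GH27 gene it gave log2 ratios of 2.66 to 3.81, with no value without 48 h glucose library 3, which held the single read of that condition. The GH54 gene could not be fitted for 5 h over 48 h glucose in the compared conditions alone, where it failed the filter.

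The list genes called higher in 5 h than in 48 h glucose, 1 in the main test, were 0 in the compared conditions only and 0 at an adjusted p below 0.001 (0 to 1 without single libraries, with 0 without 5 h glucose library 2). Those called lower, 3 in the main test, were 1 at that threshold and 1 to 3 without single libraries, with 1 without either 5 h glucose library. The 1 list gene lower on straw than in 48 h glucose was not called with the RPKM library totals (0) or at that threshold (0). The log2 ratio of the β-mannosidase to the GH54 gene for straw over 48 h glucose turned from -0.11 to 0.24 with 2 reads added, and without single libraries it ranged from -0.58 to 0.45. The cause was not tested.

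Libraries with the same replicate number mostly did not deviate together (correlations of -0.027 to 0.0081 between 48 h glucose and straw, 0.0013 to 0.010 between straw and 5 h glucose, and -0.0017 and 0.151 for the 2 pairs of 48 h and 5 h glucose), so the numbers were not taken to pair them. With a replicate block the log2 fold changes were 9.41, 4.92 and 4.94 for *glr1*, the β-mannosidase gene and the GH54 gene on straw over 48 h glucose, -9.27, -3.37 and -4.15 for 5 h glucose over straw, and 0.14, 1.54 and 0.78 for 5 h over 48 h glucose. The block ended the call of list gene TRIREDRAFT_64827 on straw over 48 h glucose (adjusted p = 0.061) and no other in the list. Depth limits the values of the GH27 gene, with 19 reads in 8 libraries, and of the GH54 gene in glucose.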
